A study of Homo sapiens and Mus musculus with 69 samples.

Results

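The BCL2 family genes described here are 10 genes of mitochondrial apoptosis, namely *BCL2*, *BCL2L1*, *MCL1*, *BCL2A1*, *BAX*, *BAK1*, *BCL2L11*, *BBC3*, *PMAIP1* and *BIK*, followed across small cell lung cancer (SCLC) lines in which Notch signaling or the histone demethylase LSD1 had been manipulated. They were chosen by name. All 10 were found among the 20516 genes of the human table, and 9 of them, as title-case mouse symbols, among the 18501 genes of the table of the mouse line KP1, where *Bcl2a1* was not analysed here. Values came from bulk RNA-Seq of 69 libraries in 23 groups of 3 libraries each. Nothing in the labels says that the libraries of a group were separate cultures, so *P* values measure only the spread between these libraries, which may be technical. In bulk RNA, fewer cells that express a gene and less RNA of it per cell cannot be told apart.

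H82, H524, H69 and COR-L88 are human SCLC lines. H82 libraries were from parental cells and from cells carrying a lentiviral, doxycycline-inducible vector for the NOTCH1 intracellular domain (*N1ICD*), the active form of the receptor, without or with 1 μg/mL doxycycline. The vector-bearing cells were intact, carried *REST* KO (REST is a repressor of neuronal genes) or carried *STING1* KO (STING is an adaptor of cytosolic DNA sensing). H524 libraries were from parental cells, from *N1ICD* vector cells and from cells with an inducible *REST* vector, the last 2 without and with doxycycline. H69 libraries were from parental cells and from *N1ICD* vector cells without and with doxycycline. COR-L88 cells received DMSO, the LSD1 inhibitor TAS1440 (100 nM) or TAS1440 with a gamma-secretase inhibitor (GSI, which blocks Notch cleavage; BMS-708163, 2 μM), and COR-L88 cells with *STING1* KO received DMSO or TAS1440. KP1, a mouse SCLC line derived from a tumor in which Cre had deleted *Rb1* and *Trp53*, received DMSO, TAS1440 or TAS1440 with GSI (DBZ, 10 μM).

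Some features limit these groups as models. By the study's methods, induced cells of the overexpression experiments were the adherent cells left after at least 28 days of doxycycline. The effects of the vector, of doxycycline itself and of the collection of adherent cells therefore cannot be told apart. No group of parental cells received doxycycline, and only H524 had another vector with it. Labels give no time, and the legends give 28 days or more for the TAS1440 cultures. For H82 the legends give 56 days of induction for the comparison with *REST* KO, while a panel with *STING1* KO is marked day 28, so induced H82 cells with *STING1* KO and intact ones may differ in time on doxycycline. The KO was made with a single target sequence for each gene, and whether the libraries of a KO group came from 1 clone or from several is not given in the sources used here.

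BCL2 family proteins decide whether the outer mitochondrial membrane is permeabilized. Antiapoptotic members (BCL2, BCL-XL encoded by *BCL2L1*, MCL1 and BFL1 encoded by *BCL2A1*) hold the effectors BAX and BAK in check, and BH3-only proteins such as BIM (*BCL2L11*), PUMA (*BBC3*), NOXA (*PMAIP1*) and BIK bind the antiapoptotic members or the effectors and tip the balance toward cell death. NOXA binds MCL1 preferentially, and SCLC is known as a tumor in which BCL2 is often abundant and has been tested as a drug target.

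The promoters of 3 members are shown because their levels set lines or treatments apart: *BAK1* rose with TAS1440 in both species, *BCL2L11* rose by 1.45 on induction in H82 cells with *REST* KO, and *BBC3* was highest in H69. Each is the 250 bases before the start of the gene from RefSeq on GRCh38.p14, written 5′ to 3′ on the strand of the gene, with the core of the site of RBPJ, the DNA-binding partner of N1ICD, in capitals (TGGGAA, searched on both strands). *BAK1* is at chr6:33580277-33580526 on the minus strand, *BCL2L11* at chr2:111120664-111120913 on the plus strand and *BBC3* at chr19:47232668-47232917 on the minus strand.
BAK1: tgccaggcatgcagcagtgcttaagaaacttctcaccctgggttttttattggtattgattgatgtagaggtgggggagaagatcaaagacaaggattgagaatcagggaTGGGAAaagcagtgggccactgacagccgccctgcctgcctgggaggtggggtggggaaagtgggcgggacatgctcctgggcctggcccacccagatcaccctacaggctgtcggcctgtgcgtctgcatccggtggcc
BCL2L11: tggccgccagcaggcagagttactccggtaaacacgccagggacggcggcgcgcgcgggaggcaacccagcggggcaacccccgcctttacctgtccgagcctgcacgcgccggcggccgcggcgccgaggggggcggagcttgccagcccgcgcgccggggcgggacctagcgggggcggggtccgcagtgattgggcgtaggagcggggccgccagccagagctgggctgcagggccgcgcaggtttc
BBC3: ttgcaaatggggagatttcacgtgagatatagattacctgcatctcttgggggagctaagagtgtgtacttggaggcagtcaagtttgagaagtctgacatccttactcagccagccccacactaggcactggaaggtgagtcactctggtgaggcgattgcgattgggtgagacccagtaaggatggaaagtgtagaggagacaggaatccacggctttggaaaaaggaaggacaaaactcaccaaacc
Entries were found for 8 of the 10 members. The *BAK1* window held 1 match, and those of the other 7 held none, against 20.8% of all 35116 promoters of this length. GC content was 58.0% for *BAK1*, 76.8% for *BCL2L11* and 49.2% for *BBC3*. A match describes letters in the window and is not evidence of binding.

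All levels below are log2(RPKM + 1) as deposited, so that 0 is no signal and changes near 0 are understated, and all changes are differences of such values (log2 fold changes). Read counts are not part of the tables, and steps between the lowest values put the human libraries at 0.698 to 1.52 of their median size. Groups within a line were compared by limma over all genes with a level of at least 1 in at least 3 libraries, and a member was taken to have changed at a Benjamini-Hochberg adjusted *P* under 0.05. In *N1ICD* vector cells, the RPKM of 8 neuroendocrine genes summed to 9029 to 22374 without and 258 to 451 with doxycycline in intact H82, to 12331 to 25744 and 834 to 1750 in H524 and to 1246 to 2354 and 133 to 138 in H69. The 5 endothelial and fibroblast markers of the table summed to 0.758 to 1.65 and 44.8 to 85.6 RPKM in H82, to 0.151 to 1.20 and 113 to 131 in H524 and to 0.224 to 0.548 and 126 to 128 in H69, led by *PDGFRB*, and the 6 leukocyte markers to at most 29.3 in any group. In H69 the leukocyte sum was 7.43 to 10.9 without and 26.7 to 29.3 with doxycycline, led by *CD14*, which rose by 1.51 (adjusted *P* = 4.47e-06). *PTPRC* and *CD3E*, which define leukocytes and T cells, and *CDH5*, which defines endothelium, were at or near 0. *CDH5* does not describe its whole list. Of the 5 endothelial and fibroblast markers, 2 reached a level of 1 in at least 1 library of induced intact H82 cells and of induced H524 *N1ICD* cells. In induced H69 cells 3 did. The part of these shifts in the changes of the members was not tested.

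The lines differed in which members they expressed, compared as parental H82, H524 and H69 cells and as COR-L88 cells with DMSO. COR-L88 had no untreated group, so line and vehicle cannot be told apart there. Taken over the medians of the 60 human libraries, *BAX* was at percentile 98.6 of all genes, *BCL2L1* at 94.8, *BAK1* at 90.2, *MCL1* at 84.0, *PMAIP1* at 80.3, *BCL2* at 66.0, *BCL2L11* at 57.5, *BBC3* at 54.7 and *BIK* at 34.7. *BCL2A1* was listed at 0 in 48 of the 60 libraries, and its highest level was 0.39, in COR-L88 cells with *STING1* KO and TAS1440, so it entered no test. In KP1, *Bcl2*, *Pmaip1* and *Bik* were too low to be tested.

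*BCL2* (chromosome 18, 60790579 to 60987361 of GRCh37), the founding antiapoptotic member, spanned the widest range. Parental H82 cells had levels of 0.18, 0.28 and 0.27, parental H524 cells 3.20, 1.82 and 2.78, parental H69 cells 5.79, 5.90 and 5.85, and COR-L88 cells with DMSO 6.15, 6.52 and 6.26. H69 and COR-L88 lay above H82 and H524 without overlap. H82 was lower than H524 by 2.36 (−2.36, 95% CI −2.95 to −1.76, adjusted *P* = 4.86e-09), and H524 was lower than H69 by 3.25 (−3.25, −3.85 to −2.65, adjusted *P* = 6.20e-13). H69 and COR-L88 differed by −0.46 (−1.06 to 0.14, adjusted *P* = 0.188), which did not pass the test.

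Of the 9 members tested in these comparisons of all 60 libraries, 3 differed between H82 and H524 (57.4% of all 15888 genes did), 6 between H82 and H69 (67.1%), 6 between H82 and COR-L88 (64.3%), 5 between H524 and H69 (58.7%), 4 between H524 and COR-L88 (60.0%) and 5 between H69 and COR-L88 (57.0%). *PMAIP1* (chromosome 18, 57567228 to 57571537) was highest in parental H69, with a mean of 6.94 ± 0.10 (SD, n = 3), against 3.93 ± 0.39 in H82, 4.48 ± 0.14 in COR-L88 and 4.62 ± 0.51 in H524. H69 was above COR-L88 by 2.46 (adjusted *P* = 4.11e-12), whereas H524 and COR-L88 differed by 0.15 (95% CI −0.34 to 0.63). The lower *PMAIP1* of H82 than of H524 (−0.69, adjusted *P* = 0.0126) was lost without library 3, 19 or 21 (−0.57 to −0.48, adjusted *P* = 0.0693 to 0.123), and that of H82 than of COR-L88 (−0.54, adjusted *P* = 0.0457) without library 2, 3, 10, 11 or 12 (−0.59 to −0.33, adjusted *P* = 0.0577 to 0.285). *BBC3* (chromosome 19, 47724079 to 47736023) was also highest in H69, at 3.80, and was 1.17 to 1.75 in the other 3 lines, with H69 above COR-L88 by 2.62 (adjusted *P* = 3.84e-08) and no difference called among the other 3.

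COR-L88 stood out for 2 other BH3-only genes. *BCL2L11* (chromosome 2, 111876955 to 111926021) was 3.94 there, against 2.44 in H69, 2.08 in H82 and 2.03 in H524, and COR-L88 exceeded H69 by 1.49 (H69 minus COR-L88 −1.49, adjusted *P* = 1.14e-11). *BIK* (chromosome 22, 43506756 to 43525718) was 2.66 in COR-L88 and 0.14, 0.30 and 0.47 in H82, H524 and H69, which did not differ from each other by the test. In the fit of all 60 libraries *BIK* passed the filter only through COR-L88 and induced H82 cells. *BAK1* (chromosome 6, 33540324 to 33548070) was highest in H82, at 6.95, and 5.46 to 5.61 in the other lines (H82 minus H524 1.35, adjusted *P* = 6.76e-06). *BCL2L1* (chromosome 20, 30252255 to 30311792) was 6.76 in H524 and 6.79 in H82, below 7.45 in H69 and 7.54 in COR-L88. Its difference between H524 and COR-L88 (−0.78, adjusted *P* = 0.00394) held without any single library, that between H524 and H69 (−0.68, adjusted *P* = 0.0112) was lost without library 20 (−0.58, adjusted *P* = 0.0581), that between H82 and COR-L88 (−0.75, adjusted *P* = 0.00487) without library 3 (−0.57, adjusted *P* = 0.0534), and that between H82 and H69 (−0.65, adjusted *P* = 0.0127) without library 2, 3 or 47 (−0.58 to −0.47, adjusted *P* = 0.0503 to 0.107).

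*MCL1* (chromosome 1, 150533371 to 150552214), a short-lived antiapoptotic protein, was even between the lines. Its means were 4.72 in H82, 4.92 in H69 and 4.99 in both H524 and COR-L88, and no pair of lines differed by the test. *BAX* (chromosome 19, 49458072 to 49465055) lay between 8.53 and 10.17 in all 60 human libraries. Of the pairs of lines compared in this way, only H69 and COR-L88 differed in *BAX* (−0.44, adjusted *P* = 0.0226), and this was lost without library 10, 12 or 46 (−0.42 to −0.37, adjusted *P* = 0.0583 to 0.0994). The lower *BCL2L11* of H82 than of H69 (−0.36, adjusted *P* = 0.0340) was lost without library 2, 3, 47 or 48 (−0.35 to −0.24, adjusted *P* = 0.0711 to 0.203), and that of H524 than of H69 (−0.41, adjusted *P* = 0.0169) without library 20 (−0.28, adjusted *P* = 0.142).

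**Figure D1:**
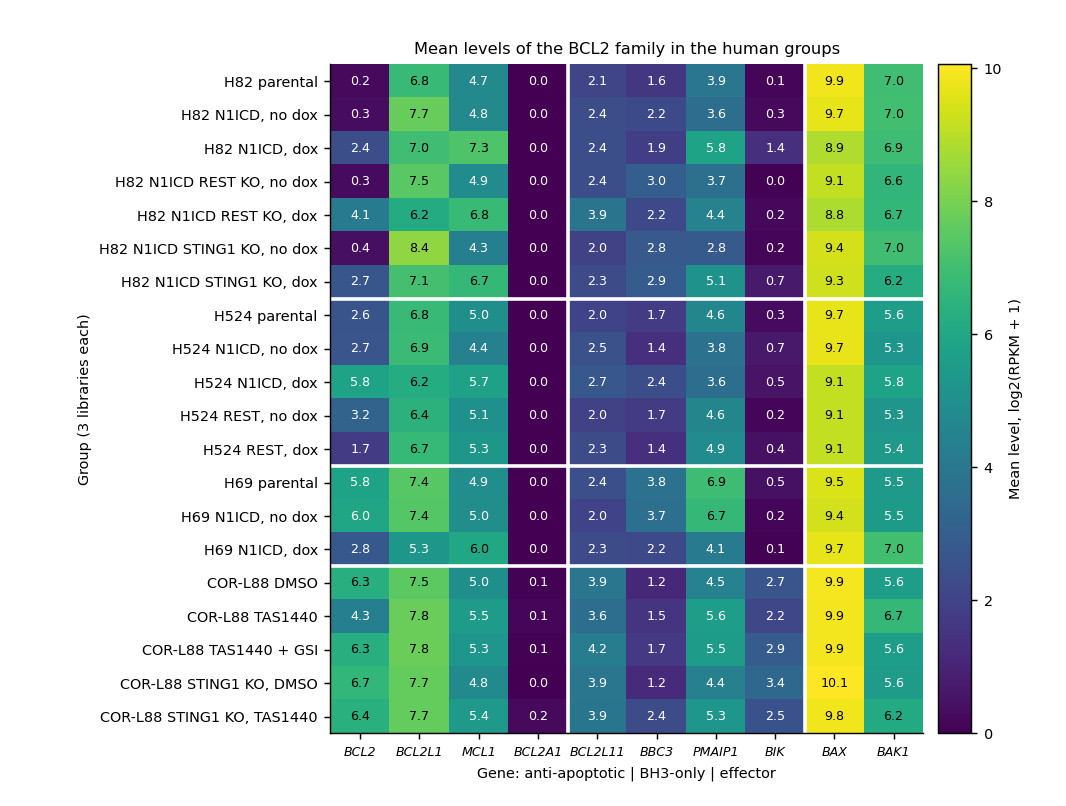
Mean log2(RPKM + 1) of each member (columns) in each of the 20 human groups (rows), 3 libraries a group, with the value written in each cell. *BCL2* runs from 0.24 in parental H82 to 6.67 in COR-L88 cells with *STING1* KO and DMSO, and *BCL2A1* stays near 0 in every group.

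*N1ICD* induction changed *BCL2* and *MCL1* in H82, H524 and H69, with *BCL2* higher in H82 and H524 and lower in H69 and *MCL1* higher in all 3. In H82, 5 of the 9 members tested changed with doxycycline, against 50.3% of all genes, with a median log2 fold change of the members of 0.04 and of all genes of −0.0026. Of the 9, *BCL2* and *BIK* passed the filter only through induced libraries. In H524, 4 of 8 changed (32.3% of all genes), with medians of 0.39 for the members and −0.02 for all genes. In H69 all 8 tested members changed, against 82.3% of all genes, with medians of −0.58 and 0.08. Shares near that background say nothing particular about the family, and the changes of single members follow.

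*BCL2* levels in intact H82 *N1ICD* cells were 0.53, 0.20 and 0.25 without doxycycline and 2.75, 1.57 and 2.96 with it. Every induced library was above every uninduced one, and the rise was 2.10 (95% CI 1.57 to 2.63, adjusted *P* = 2.11e-06), or 3.68 with a pseudocount of 0.1. In H82 *BCL2* was under 1 in every parental and uninduced library, so it passed the filter only through induced ones. Without a rise it would not have been tested. In H524 the levels were 3.26, 2.74 and 1.95 without and 5.47, 5.95 and 6.07 with doxycycline, again without overlap. This rise was 3.18 (2.31 to 4.05, adjusted *P* = 3.45e-05) and ended at a mean of 5.83 ± 0.31, beside 5.85 ± 0.06 in parental H69. H69 started high, at 6.17, 5.89 and 5.79, and went to 3.05, 2.87 and 2.38, a fall by 3.18 (−3.57 to −2.80, adjusted *P* = 2.43e-07).

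*MCL1* rose with *N1ICD* in all 3 lines. Levels in H82 were 5.21, 4.48 and 4.57 without and 7.27, 7.05 and 7.49 with doxycycline, a rise of 2.52 (95% CI 2.10 to 2.94, adjusted *P* = 1.07e-08), which is a 5.73-fold difference of RPKM + 1. In H524 they were 4.52, 4.31 and 4.43 without and 5.57, 5.83 and 5.82 with it (1.32, 1.03 to 1.62, adjusted *P* = 4.92e-06). In H69 they were 4.84, 5.03 and 5.02 without and 6.00, 6.00 and 6.01 with it (1.04, 0.90 to 1.18, adjusted *P* = 5.24e-07). None of these groups overlapped. There were 8 comparisons of *N1ICD* or TAS1440 with control cells that each had their own controls, and *MCL1* or *Mcl1* was higher in all 8, with log2 fold changes from 0.54 to 2.52. Comparisons within H82 or within COR-L88 share a line and are not independent. The share of all genes higher in all 8 is not given here, only that in each comparison. Of all genes, 25.4% were higher in intact H82 cells, 26.0% in H82 with *REST* KO, 20.8% in H82 with *STING1* KO, 17.9% in H524, 44.1% in H69, 31.1% in COR-L88, 22.4% in COR-L88 with *STING1* KO and 18.2% in KP1. By contrast *BCL2* was tested in 7 of them and was higher in 4 and lower in 2. Its tests in H82 exist only because it reached 1 in induced cells.

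*BCL2L1* fell in H69 from 7.41, 7.40 and 7.43 to 5.32, 5.42 and 5.26, with groups far apart (−2.08, 95% CI −2.24 to −1.91, adjusted *P* = 1.86e-08). In H82 its levels were 6.89, 8.51 and 7.77 without and 7.23, 6.84 and 6.88 with doxycycline, and the groups overlapped. This difference of −0.74 (−1.43 to −0.04, adjusted *P* = 0.0712) did not pass the test, although with median-centred libraries it did (−0.79, adjusted *P* = 0.0497). H524 levels went from 6.63, 7.26 and 6.68 to 6.14, 6.26 and 6.32, a fall by 0.62 (−1.03 to −0.21, adjusted *P* = 0.0236) that was lost without library 23, 25 or 26 (−0.63 to −0.42, adjusted *P* = 0.0594 to 0.0808) and with only the compared groups in the fit (adjusted *P* = 0.0661). In no one of the 8 comparisons was *BCL2L1* higher.

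**Figure D2:**
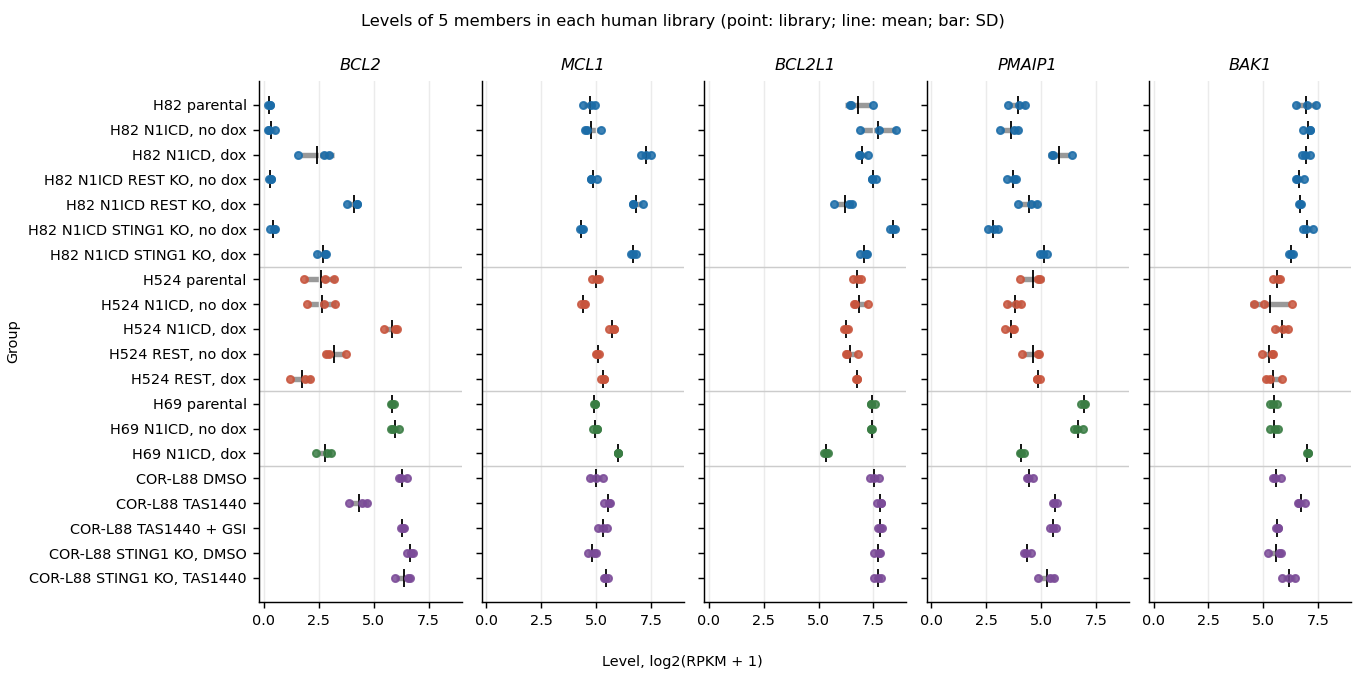
Levels of *BCL2*, *MCL1*, *BCL2L1*, *PMAIP1* and *BAK1* (x axis, log2(RPKM + 1)) in every library of the 20 human groups (rows, colored by line). Points are libraries, lines the mean and gray bars the SD of 3. *MCL1* is higher with doxycycline in the *N1ICD* cells of every line, and *BCL2* and *PMAIP1* are lower with it in H69.

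The order of the antiapoptotic genes changed with these shifts. RPKM is scaled by gene length, but the lengths used are not given. Levels of different genes, and the sign of a difference between them, are therefore compared only as deposited. *BCL2L1* was the highest of *BCL2*, *BCL2L1* and *MCL1* in 51 of the 60 human libraries. *MCL1* was the highest in the other 9, which were all libraries of induced H82 cells, intact and with *REST* KO, and of induced H69 cells. The level of *MCL1* minus that of *BCL2L1* went from −2.97 ± 1.19 to 0.29 ± 0.30 in intact H82 cells, from −2.44 ± 0.45 to −0.50 ± 0.07 in H524 and from −2.45 ± 0.10 to 0.67 ± 0.08 in H69 (SD, n = 3). In parental cells it was −2.07 ± 0.62 in H82, −1.77 ± 0.05 in H524 and −2.53 ± 0.11 in H69. In COR-L88 it was −2.55 ± 0.43 with DMSO and −2.25 ± 0.21 with TAS1440, which overlapped.

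**Figure D3:**
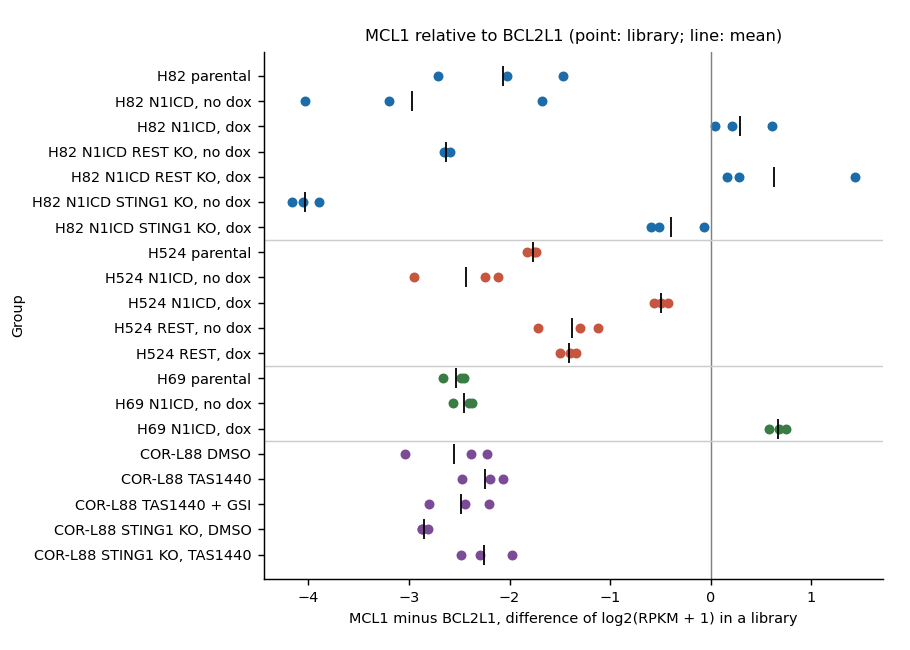
Level of *MCL1* minus that of *BCL2L1* in the same library (x axis, difference of log2(RPKM + 1)) for the 20 human groups (rows), with points for libraries, short lines for the mean of 3 and a gray line at equal levels. Libraries of induced H82 cells, intact or with *REST* KO, and of induced H69 cells lie to the right of 0 and all others to the left.

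*PMAIP1*, which encodes the BH3-only protein NOXA, also differed by line. In H82 it was 3.15, 3.75 and 3.95 without and 5.56, 6.40 and 5.50 with doxycycline, a rise of 2.20 (95% CI 1.61 to 2.79, adjusted *P* = 3.78e-06) without overlap. In H524 it was 3.86, 4.10 and 3.44 without and 3.71, 3.38 and 3.79 with it, and the groups overlapped (−0.17, −0.75 to 0.40, adjusted *P* = 0.666). In H69 it fell from 6.52, 6.65 and 6.89 to 4.04, 4.07 and 4.21 (−2.58, −2.82 to −2.35, adjusted *P* = 4.31e-08). Thus *BCL2* and *PMAIP1* both rose in H82 and both fell in H69, and in H524 *BCL2* passed the test and *PMAIP1* did not.

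*BBC3*, which encodes PUMA, fell in H69 from 3.59, 3.60 and 3.79 to 2.13, 2.33 and 2.16 (−1.45, adjusted *P* = 4.92e-06). In H524 it was 0.52, 2.33 and 1.24 without and 2.24, 2.25 and 2.71 with doxycycline, and the groups overlapped. Its rise of 1.04 there (0.25 to 1.83, adjusted *P* = 0.0441) was lost without library 22, 24, 25, 26 or 27 (0.62 to 1.12, adjusted *P* = 0.0727 to 0.179), without the filter on low values (adjusted *P* = 0.0634), with quantile normalization (0.84, adjusted *P* = 0.0767), with median-centred libraries (0.93, adjusted *P* = 0.0600) and with only the compared groups (adjusted *P* = 0.133), and was 1.57 with a pseudocount of 0.1. In H82 *BBC3* was not called (−0.39, −1.24 to 0.45).

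*BIK* was near 0 in uninduced H82 cells, at 0.21, 0.46 and 0.08, and was 1.63, 1.33 and 1.24 with doxycycline. It rose by 1.15 (0.77 to 1.53, adjusted *P* = 4.55e-05), or by 2.68 with a pseudocount of 0.1. In every H82 test *BIK* passed the filter only through libraries of induced cells. Without a rise it would not have been tested. *BCL2L11*, which encodes BIM, rose by 0.28 in H69 (2.03 ± 0.08 to 2.32 ± 0.04, adjusted *P* = 0.00268) and was not called in intact H82 (0.04, −0.32 to 0.41) or in H524 (0.23, −0.19 to 0.64).

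Of the effectors, *BAK1* rose in H69 from 5.51, 5.64 and 5.31 to 7.02, 7.02 and 6.97 (1.52, 95% CI 1.28 to 1.75, adjusted *P* = 1.26e-06). It was not called in H82 (−0.09, −0.51 to 0.32) or H524 (0.55, −0.22 to 1.32). *BAX* fell in H82 from 9.70, 9.72 and 9.64 to 8.93, 8.77 and 8.91 (−0.82, −1.19 to −0.45, adjusted *P* = 0.000865). In H524 its difference was −0.55 (−1.02 to −0.09, adjusted *P* = 0.0668), past the threshold with quantile normalization (−0.59, adjusted *P* = 0.0311) and with median-centred libraries (−0.67, adjusted *P* = 0.0474). In H69 *BAX* was 9.09, 9.64 and 9.32 without and 9.72, 9.63 and 9.64 with doxycycline, and the groups overlapped. That rise of 0.31 (adjusted *P* = 0.0378) was lost without library 49, 51, 52, 53 or 54 (0.18 to 0.33, adjusted *P* = 0.0679 to 0.103), without a filter (adjusted *P* = 0.0511), with median-centred libraries (0.29, adjusted *P* = 0.0630) and with only the compared groups (adjusted *P* = 0.0776), and became −0.020 with quantile normalization (adjusted *P* = 0.899).

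**Figure D4:**
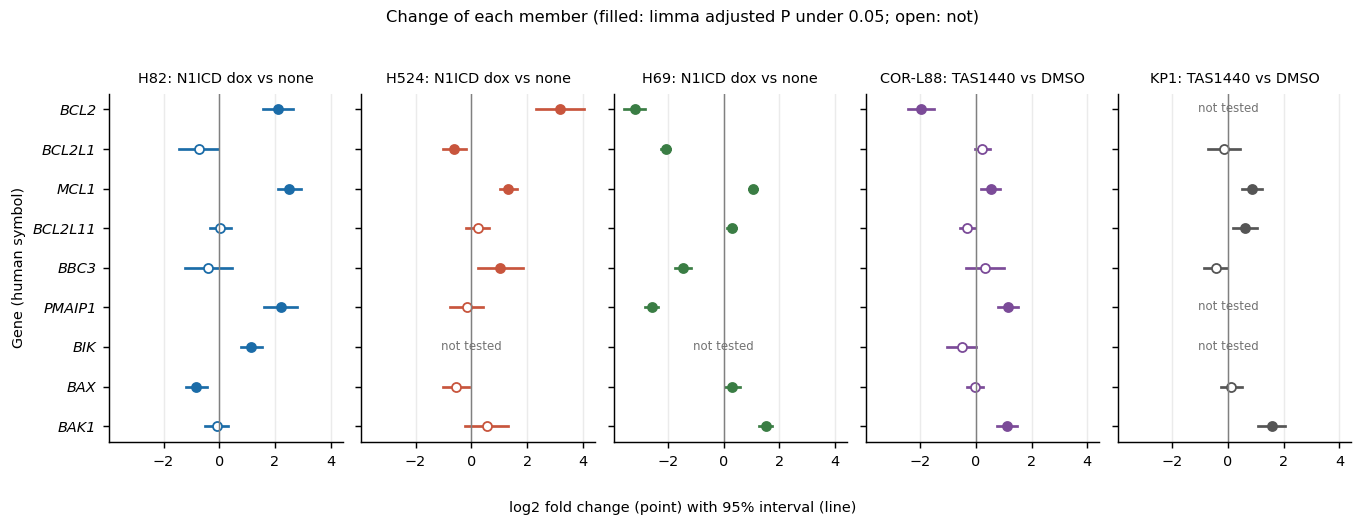
Log2 fold change (point) of each tested member with its 95% CI (line) for *N1ICD* doxycycline against none in H82, H524 and H69 and for TAS1440 against DMSO in COR-L88 and KP1, with filled points for an adjusted *P* under 0.05 (limma) and open points otherwise. *MCL1* lies above 0 in each panel, and *BCL2* lies above 0 in H82 and H524 and below 0 in H69 and COR-L88.

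Differences between the lines were tested directly, as the difference of their *N1ICD* responses in a fit of all 60 human libraries. Between H69 and H82, 7 of 9 members responded differently (60.6% of all genes did), and each held without any single library. The response of H69 was lower by 5.28 for *BCL2* (−5.28, adjusted *P* = 1.13e-14), by 4.78 for *PMAIP1* (−4.78, adjusted *P* = 3.16e-16), by 1.48 for *MCL1* (−1.48, adjusted *P* = 1.53e-07), by 1.34 for *BCL2L1* (−1.34, adjusted *P* = 0.000552) and by 1.24 for *BIK* (−1.24, adjusted *P* = 8.49e-05, or −3.21 with a pseudocount of 0.1), and higher by 1.61 for *BAK1* and 1.13 for *BAX*. The *BAX* difference was 0.54 with quantile normalization (adjusted *P* = 0.0348). *BIK* was under 1 in every H69 library, so its response there was measured near the floor. The induced level of *NOTCH1* itself was 4.26 to 5.56 in these H82 cells, 7.58 to 8.31 in H524 and 7.93 to 8.07 in H69. *HES1*, a target gene of Notch, went from 1.14 to 1.42 without to 4.56 to 6.16 with doxycycline in H82. It went from 0.37 to 0.77 to 4.25 to 5.15 in H524 and from 2.93 to 3.62 to 3.76 to 3.82 in H69. The part of *NOTCH1* and *HES1* in the differences between lines was not tested.

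Between H69 and H524, 6 of 9 members responded differently (54.8% of all genes). *BCL2* was lower in its response in H69 by 6.36 (−6.36, adjusted *P* = 3.37e-17), *BBC3* by 2.50 (−2.50, adjusted *P* = 7.16e-05), *PMAIP1* by 2.41 (−2.41, adjusted *P* = 8.30e-08) and *BCL2L1* by 1.46 (−1.46, adjusted *P* = 0.000236), and *BAX* was higher by 0.87 (adjusted *P* = 0.00200). For *BAK1* the difference of 0.97 (adjusted *P* = 0.0152) was lost without library 22 or 25 (0.47 and 0.82, adjusted *P* = 0.171 and 0.0558) and with only the compared groups (adjusted *P* = 0.131). The responses of *MCL1* in H69 and H524 differed by −0.28 (−0.72 to 0.16), which was not called. Between H82 and H524, 5 of 9 differed (32.4% of all genes). The H82 response exceeded that of H524 by 2.38 for *PMAIP1* (adjusted *P* = 2.87e-07), by 1.20 for *MCL1* (adjusted *P* = 2.52e-05) and by 1.30 for *BIK* (adjusted *P* = 0.000125, or 3.05 with a pseudocount of 0.1). In every H524 library *BIK* was under 1, so its response there was measured near the floor. For *BBC3* the difference of −1.44 (adjusted *P* = 0.0289) was lost without library 5, 6, 8, 22, 24 or 27 (−1.37 to −1.01, adjusted *P* = 0.0542 to 0.140) and with only the compared groups (adjusted *P* = 0.207). For *BCL2* the difference of −1.08 (adjusted *P* = 0.0440) depended on the scale, being 0.28 with a pseudocount of 0.1 (adjusted *P* = 0.729), and was lost without library 4, 5, 6, 8, 24, 26 or 27 (−1.14 to −0.65, adjusted *P* = 0.0528 to 0.241), without a filter (adjusted *P* = 0.0525) and with only the compared groups (adjusted *P* = 0.222).

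The *REST* vector in H524 asked whether raising *REST* moves the same genes. *NOTCH1* rose with it as well, from a mean of 0.49 to 1.87 (1.38, adjusted *P* = 0.0144 by limma). With the *N1ICD* vector *REST* rose from 3.26 to 5.98 (2.72, adjusted *P* = 0.00771). The vectors thus did not separate these genes fully. In the *REST* vector cells, *REST* levels were 6.87, 10.72 and 9.43 in the induced libraries, against 4.90 to 5.05 without doxycycline. None of the 8 members passed the test in these cells (2.83% of all genes did by limma), and *BCL2* was the only member with an unadjusted *P* under 0.05. Its levels were 3.75, 2.83 and 2.98 without and 2.12, 1.20 and 1.90 with doxycycline, which did not overlap. The difference was −1.45 (95% CI −2.32 to −0.58, unadjusted *P* = 0.00317, adjusted *P* = 0.0758) and passed with quantile normalization (−1.51, adjusted *P* = 0.0490). *MCL1* was 5.07 ± 0.09 without and 5.32 ± 0.07 with doxycycline (0.26, −0.04 to 0.55).

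Set against each other, the 2 induced H524 groups differed in 4 of 8 members (42.8% of all genes). *BCL2* under *N1ICD* exceeded that under *REST* by 4.09 (3.22 to 4.96, adjusted *P* = 2.74e-06), and *PMAIP1* was lower by 1.22 (−1.22, −1.80 to −0.64, adjusted *P* = 0.00237). *MCL1* was higher by 0.42 (adjusted *P* = 0.0245), which was lost without library 26, 27 or 37 (0.37 to 0.38, adjusted *P* = 0.0802 to 0.0917). *BBC3* was higher by 1.05 (adjusted *P* = 0.0338), which was lost without any one of the 6 libraries (0.89 to 1.13, adjusted *P* = 0.0558 to 0.118), without a filter (adjusted *P* = 0.0502) and with a pseudocount of 0.1 (1.41, adjusted *P* = 0.0616). The *BCL2L1* difference of −0.50 (adjusted *P* = 0.0502) lay at the threshold and passed it in the other settings tried except variances without a trend. As an interaction, which removes the difference between the uninduced cells, 3 of 8 differed (19.1% of all genes). These were *BCL2* (4.63, 3.40 to 5.86, adjusted *P* = 5.77e-05), *MCL1* (1.07, 0.65 to 1.48, adjusted *P* = 0.00146) and *BCL2L1* (−0.91, adjusted *P* = 0.0305), the last lost without library 25, 26, 27, 35, 36, 37, 38 or 39 (−0.95 to −0.82, adjusted *P* = 0.0515 to 0.0816). *PMAIP1* was not among them. Without doxycycline its mean was already 3.80 with the *N1ICD* vector and 4.63 with the *REST* vector.

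In H82, *REST* KO asked whether REST is needed for the response. *REST* mRNA was 6.31 in intact induced cells and 5.26 with the KO (−1.05, adjusted *P* = 0.0011), and it was 4.64 and 4.11 without doxycycline. The induced groups also differed in *NOTCH1*, at 4.86 in intact cells and 9.55 with *REST* KO (4.69, adjusted *P* = 2.06e-07), so the KO and the higher *NOTCH1* cannot be told apart in the results that follow. The neuroendocrine genes summed to 13233 to 19609 RPKM without and 262 to 278 with doxycycline in the KO, and the endothelial and fibroblast markers to 1.43 to 1.54 and 94.0 to 199 RPKM.

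*BCL2* in H82 cells with *REST* KO was 0.34, 0.31 and 0.25 without and 4.24, 4.25 and 3.80 with doxycycline, the highest level of *BCL2* in H82. With *REST* KO 5 of 9 members changed on induction (52.2% of all genes). The rise of *BCL2* was 3.80 (3.27 to 4.33, adjusted *P* = 6.51e-10), that of *MCL1* 1.96 (1.54 to 2.38, adjusted *P* = 2.00e-07) and that of *BCL2L11* 1.45 (1.09 to 1.82, adjusted *P* = 1.39e-06), while *BCL2L1* fell by 1.29 (−1.99 to −0.60, adjusted *P* = 0.00319). *BCL2L11* went from 2.37, 2.50 and 2.32 to 3.83, 4.03 and 3.70, whereas in intact cells the induced levels of 2.57, 2.02 and 2.61 overlapped the uninduced ones. *PMAIP1* went from 3.87, 3.79 and 3.47 to 4.56, 4.83 and 3.94 (0.73, adjusted *P* = 0.0356), which was lost without library 29, 30, 31 or 32 (0.54 to 0.77, adjusted *P* = 0.0605 to 0.160) and with median-centred libraries (0.66, adjusted *P* = 0.0548). The *BBC3* difference of −0.79 (adjusted *P* = 0.108) passed with quantile normalization (−0.96, adjusted *P* = 0.0450) and with only the compared groups (adjusted *P* = 0.0320).

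Among induced H82 cells, 4 of 9 members differed between *REST* KO and intact cells (38.4% of all genes), and each held without any single library. *BCL2* was higher with *REST* KO by 1.67 (adjusted *P* = 5.56e-05) and *BCL2L11* by 1.45 (adjusted *P* = 3.94e-06), while *PMAIP1* was lower by 1.38 (−1.38, adjusted *P* = 0.000874) and *BIK* by 1.19 (−1.19, adjusted *P* = 6.01e-05, or −2.79 with a pseudocount of 0.1). The same 4 made up the interaction of *REST* KO with doxycycline (16.6% of all genes). The interaction was 1.70 for *BCL2* (0.95 to 2.45, adjusted *P* = 0.00274), 1.41 for *BCL2L11* (0.90 to 1.92, adjusted *P* = 0.000532), −1.47 for *PMAIP1* (−2.30 to −0.64, adjusted *P* = 0.0152) and −0.98 for *BIK* (−1.52 to −0.44, adjusted *P* = 0.0129), the last not past the threshold with a pseudocount of 0.1 (−1.68, adjusted *P* = 0.150). *MCL1* was not among them (−0.56, −1.15 to 0.04). Without doxycycline only *BAX* was called (15.2% of all genes), lower by 0.54 with *REST* KO (−0.54, adjusted *P* = 0.0467). This call was lost without any one of the 6 libraries (−0.64 to −0.46, adjusted *P* = 0.0534 to 0.174) and with quantile normalization (−0.31, adjusted *P* = 0.255).

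*STING1* KO in H82 asked whether the response passes through STING. *STING1*, listed as *TMEM173*, was 1.11 in intact induced cells and 1.61 in induced cells labelled *STING1* KO, so its mRNA does not show the KO, which need not lower mRNA. *NOTCH1* was again higher in the KO, at 6.96 against 4.86 (2.10, adjusted *P* = 0.00113), and this cannot be told apart from the KO. In the KO the neuroendocrine genes summed to 3994 to 6986 RPKM without and 215 to 403 with doxycycline, the former below the range of intact cells, and the endothelial and fibroblast markers to 1.60 to 3.47 and 50.6 to 81.2 RPKM. With *STING1* KO 6 of 9 members changed on induction (37.8% of all genes). *BCL2* went from 0.49, 0.30 and 0.49 to 2.85, 2.41 and 2.80 (2.26, adjusted *P* = 1.27e-06, or 3.66 with a pseudocount of 0.1), and *MCL1* from 4.34, 4.41 and 4.25 to 6.69, 6.57 and 6.81 (2.36, adjusted *P* = 4.03e-08). *PMAIP1* rose from 2.85, 3.03 and 2.60 to 5.29, 5.10 and 4.96 (2.29, adjusted *P* = 3.55e-06). *BCL2L1* fell from 8.23, 8.47 and 8.41 to 7.20, 7.17 and 6.88 (−1.29, adjusted *P* = 0.0049), and *BAK1* fell from 6.93, 7.25 and 6.79 to 6.33, 6.24 and 6.15 (−0.75, adjusted *P* = 0.00576). The parental H82 mean of *BCL2L1* was 6.79. For *BIK*, with 1.16, 0.84 and 0.19 in the induced libraries, the rise of 0.55 (adjusted *P* = 0.0240) was lost without library 57, 58 or 59 (0.34 to 0.51, adjusted *P* = 0.0714 to 0.154), with quantile normalization (0.17, adjusted *P* = 0.512), with median-centred libraries (0.47, adjusted *P* = 0.0536) and with only the compared groups (adjusted *P* = 0.113), and was 1.51 with a pseudocount of 0.1.

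The interaction of *STING1* KO with doxycycline called no member by limma (9.26% of all genes), with *BAX*, *BAK1* and *BIK* at an unadjusted *P* under 0.05. It was 0.16 for *BCL2* (−0.59 to 0.91), −0.16 for *MCL1* (−0.76 to 0.43) and 0.77 for *BAX* (0.24 to 1.29, adjusted *P* = 0.0604). Among induced cells 5 of 9 members differed between *STING1* KO and intact cells (39.2% of all genes), and each of the 5 was lost in at least 1 other fit. *BAK1* was lower by 0.68 (−0.68, adjusted *P* = 0.0108, and −0.58, adjusted *P* = 0.0504 without library 8) and *BIK* by 0.67 (−0.67, adjusted *P* = 0.00769, and −0.40, adjusted *P* = 0.0514 without library 60, adjusted *P* = 0.0888 with only the compared groups, and −1.39 with a pseudocount of 0.1). *MCL1* was lower by 0.58 (−0.58, adjusted *P* = 0.0281), lost without library 7, 9, 58 or 59 (−0.58 to −0.47, adjusted *P* = 0.0572 to 0.106), with quantile normalization (−0.39, adjusted *P* = 0.145) and with median-centred libraries (−0.53, adjusted *P* = 0.0506). *BAX* was higher by 0.47 (adjusted *P* = 0.0419), lost without library 7, 8, 9, 59 or 60 (0.34 to 0.50, adjusted *P* = 0.0617 to 0.188) and with only the compared groups (adjusted *P* = 0.112), and was 0.75 with quantile normalization. *BBC3* was higher by 1.06 (adjusted *P* = 0.0439), lost without library 8, 9, 58 or 60 (0.78 to 1.17, adjusted *P* = 0.0546 to 0.190), without a filter (adjusted *P* = 0.0679), with a pseudocount of 0.1 (1.30, adjusted *P* = 0.0573) and with only the compared groups (adjusted *P* = 0.0536). Without doxycycline *PMAIP1* alone was called (34.6% of all genes), lower by 0.79 with *STING1* KO (−0.79, adjusted *P* = 0.0360). It was lost without library 5, 6, 55 or 57 (−0.80 to −0.62, adjusted *P* = 0.0811 to 0.141) and in every other setting tried except a pseudocount of 0.1 and variances without a trend. With quantile normalization *BCL2L1* was called there in its place (0.95, adjusted *P* = 0.0245, against 0.65, adjusted *P* = 0.141).

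In COR-L88, TAS1440 lowered *BCL2* and raised *BAK1* and *PMAIP1*. *BCL2* was 6.15, 6.52 and 6.26 with DMSO, 3.87, 4.71 and 4.45 with TAS1440 and 6.33, 6.23 and 6.36 with TAS1440 and GSI, so only the cells with TAS1440 alone stood apart. TAS1440 changed 4 of 9 members against DMSO (57.7% of all genes), with a median of 0.24 for the members and 0.008 for all genes. *BCL2* fell by 1.97 (−2.42 to −1.52, adjusted *P* = 3.47e-06). Against TAS1440 with GSI, TAS1440 alone was lower by 1.96 (−1.96, −2.41 to −1.51, adjusted *P* = 1.02e-05), and TAS1440 with GSI differed from DMSO by −0.01 (−0.46 to 0.45). Both comparisons share groups, so they are not independent.

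*BAK1* showed the reverse order. Its levels were 5.45, 5.52 and 5.79 with DMSO, 6.91, 6.60 and 6.59 with TAS1440 and 5.66, 5.59 and 5.65 with TAS1440 and GSI. It rose by 1.12 against DMSO (0.75 to 1.48, adjusted *P* = 8.62e-05) and was higher than with GSI by 1.07 (0.70 to 1.44, adjusted *P* = 0.000214). With GSI it differed from DMSO by 0.05 (−0.32 to 0.41).

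*PMAIP1* behaved in another way. It was 4.41, 4.38 and 4.64 with DMSO, 5.58, 5.55 and 5.74 with TAS1440 and 5.53, 5.68 and 5.40 with TAS1440 and GSI, so the groups with TAS1440 overlapped each other and not DMSO. It rose by 1.15 with TAS1440 (0.79 to 1.51, adjusted *P* = 6.12e-05) and by 1.06 with TAS1440 and GSI (0.70 to 1.43, adjusted *P* = 0.000372), the only member called there (24.5% of all genes), and the groups with and without GSI differed by 0.09 (−0.28 to 0.45). *HES1*, a target gene of Notch, was 4.44 to 4.87 with DMSO and 4.18 to 4.93 with TAS1440 (−0.12, −0.64 to 0.40, adjusted *P* = 0.690) and 1.97 to 2.30 with TAS1440 and GSI, and *NOTCH1* mRNA was 2.35 and 6.73, higher with GSI.

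*MCL1* was 5.30, 4.98 and 4.70 with DMSO and 5.65, 5.37 and 5.58 with TAS1440. Its rise of 0.54 (0.20 to 0.88, adjusted *P* = 0.0103) was lost without library 12 (0.39, adjusted *P* = 0.0553), and the levels with TAS1440 and GSI of 5.50, 5.33 and 5.07 overlapped both groups. *BCL2L1* was 7.54 and 7.78 (0.24, −0.03 to 0.50) and was not called. TAS1440 alone differed from TAS1440 with GSI in 4 of 9 members (46.7% of all genes), also in *BCL2L11* (3.54, 3.64 and 3.73 against 3.95, 4.34 and 4.37, −0.58, adjusted *P* = 0.00264) and in *BIK* (−0.77, adjusted *P* = 0.0179), the latter lost without library 14 or 16 (−0.72 and −0.66, adjusted *P* = 0.0563 and 0.0681). Against DMSO the differences of *BCL2L11* (−0.30, adjusted *P* = 0.0677) and *BIK* (−0.50, adjusted *P* = 0.0875) passed the test with quantile normalization (−0.44 and −0.69, adjusted *P* = 0.0114 and 0.0238) and with median-centred libraries (−0.43 and −0.64, adjusted *P* = 0.0118 and 0.0335). *BBC3* in TAS1440 with GSI against DMSO (0.51, adjusted *P* = 0.274) passed with only the compared groups (adjusted *P* = 0.0379). The summed neuroendocrine genes were 1615 to 1847 RPKM with DMSO, 587 to 712 with TAS1440 and 1165 to 1268 with TAS1440 and GSI, and the endothelial and fibroblast markers at most 0.857 in any COR-L88 group.

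**Figure D5:**
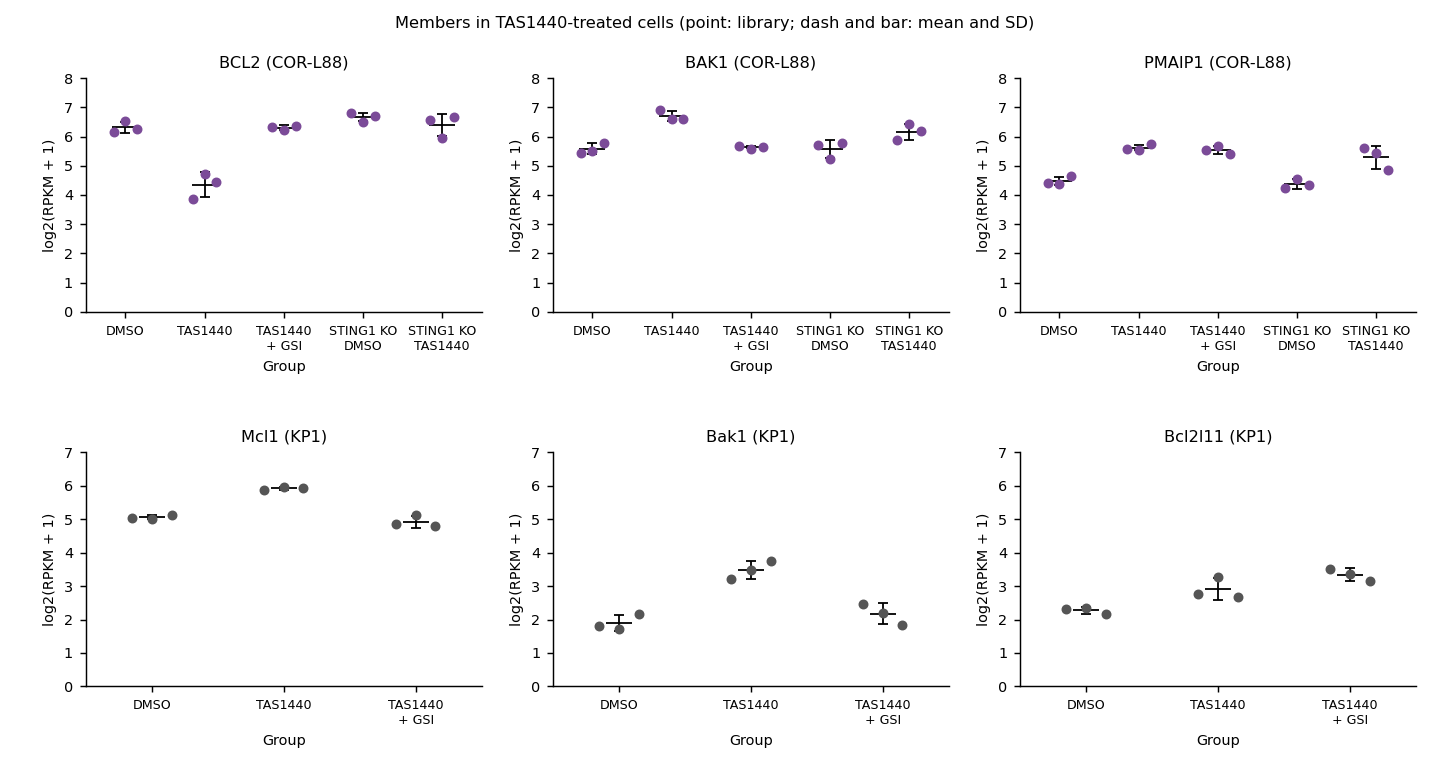
Levels, as log2(RPKM + 1), of *BCL2*, *BAK1* and *PMAIP1* in the 5 COR-L88 groups and of *Mcl1*, *Bak1* and *Bcl2l11* in the 3 KP1 groups. Points are libraries, and dashes and bars the mean and SD of 3. *BCL2* is low only with TAS1440 alone in intact COR-L88 cells, and *Bak1* is high only with TAS1440 alone in KP1.

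With *STING1* KO the fall of *BCL2* was not seen. *TMEM173* was 1.07 in COR-L88 cells with *STING1* KO and TAS1440 against 2.20 in intact cells with TAS1440 (−1.13, adjusted *P* = 0.00013). *BCL2* was 6.79, 6.51 and 6.71 with DMSO and 6.56, 5.96 and 6.65 with TAS1440 in the KO, which overlapped (−0.28, −0.73 to 0.17, adjusted *P* = 0.303). Among cells with TAS1440 it was higher with *STING1* KO by 2.04 (1.59 to 2.49, adjusted *P* = 3.13e-05), and the interaction of *STING1* KO with TAS1440 was 1.68 (1.05 to 2.32, adjusted *P* = 0.0061), both past the threshold without any single library. *BCL2* was the only member with an interaction (7.93% of all genes). Beside it, *NOTCH1* was 4.11 with *STING1* KO and TAS1440 against 2.35 in intact cells (1.76, adjusted *P* = 0.00524). *HES1* in the KO was 5.13 to 5.51 with DMSO and 2.98 to 3.99 with TAS1440 (−1.86, adjusted *P* = 3.51e-05), and its interaction was −1.74 (adjusted *P* = 0.0105). *CD68*, a macrophage marker, was 2.05 with TAS1440 in intact cells and 0.01 to 0.16 in the means of the other 4 COR-L88 groups. The part of these 3 genes in the *BCL2* result was not tested.

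Other members responded to TAS1440 in the KO, where 5 of 9 changed against DMSO (43.3% of all genes). *MCL1* rose from 4.89, 4.63 and 4.97 to 5.56, 5.41 and 5.35 (0.61, adjusted *P* = 0.00698) and *PMAIP1* from 4.25, 4.56 and 4.33 to 5.60, 5.43 and 4.84 (0.91, adjusted *P* = 0.000656), both past the threshold without any single library. *BBC3* went from 0.71, 2.10 and 0.84 to 2.33, 2.43 and 2.30 (1.14, adjusted *P* = 0.00978), which was lost without library 40 (0.88, adjusted *P* = 0.0505). *BAK1* went from 5.71, 5.23 and 5.79 to 5.87, 6.43 and 6.18 (0.58, adjusted *P* = 0.0132), lost without library 41 or 44 (0.41 and 0.45, adjusted *P* = 0.0525 and 0.0689) and with only the compared groups (adjusted *P* = 0.0707). *BIK* was lower by 0.83 (−0.83, adjusted *P* = 0.0125), lost without library 42 or 44 (−0.65 and −0.57, adjusted *P* = 0.0630 and 0.0657) and with only the compared groups (adjusted *P* = 0.0512).

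Among COR-L88 cells with TAS1440, 2 of 9 members differed between *STING1* KO and intact cells (27.1% of all genes), *BCL2* and *BAK1*. *BAK1* was lower by 0.54 (−0.54, adjusted *P* = 0.0309), lost without library 13, 43 or 45 (−0.55 to −0.40, adjusted *P* = 0.0696 to 0.142), with median-centred libraries (−0.41, adjusted *P* = 0.0770) and with only the compared groups (adjusted *P* = 0.0802). *BBC3* (0.85, adjusted *P* = 0.0612) and *BCL2L11* (0.27, adjusted *P* = 0.143) passed with quantile normalization (0.99 and 0.40, adjusted *P* = 0.0193 and 0.0416) and with median-centred libraries (0.98 and 0.40, adjusted *P* = 0.0328 and 0.0373). With DMSO no member differed by limma (5.41% of all genes), with *BIK* at an unadjusted *P* of 0.0110 (0.71, 0.19 to 1.22, adjusted *P* = 0.102) and no other member under 0.05. The faint *BCL2A1* signal of COR-L88 cells with *STING1* KO and TAS1440 was 0.39, 0.20 and 0.13 and could not be tested.

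In KP1, TAS1440 raised *Bak1* and *Mcl1*. *Bak1* (chromosome 17, 27019810 to 27029009 of GRCm38) was 1.81, 1.73 and 2.16 with DMSO, 3.21, 3.47 and 3.74 with TAS1440 and 2.48, 2.20 and 1.84 with TAS1440 and GSI. Cells with TAS1440 alone were above the other 2 groups without overlap, by 1.58 against DMSO (1.10 to 2.06, adjusted *P* = 0.00038) and by 1.30 against TAS1440 with GSI (0.82 to 1.78, adjusted *P* = 0.00139). *Mcl1* (chromosome 3, 95658788 to 95663176) was 5.05, 5.01 and 5.13 with DMSO, 5.89, 5.97 and 5.93 with TAS1440 and 4.84, 5.12 and 4.80 with TAS1440 and GSI. It was higher with TAS1440 by 0.87 against DMSO (0.51 to 1.22, adjusted *P* = 0.00218) and by 1.01 against TAS1440 with GSI (0.65 to 1.36, adjusted *P* = 0.00104). The GSI group did not differ from DMSO in *Mcl1* (−0.14, −0.50 to 0.21) or *Bak1* (0.28, −0.20 to 0.76) by the test.

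*Bcl2l11* (chromosome 2, 128126038 to 128162547) followed another order in KP1, at 2.32, 2.35 and 2.15 with DMSO, 2.76, 3.28 and 2.67 with TAS1440 and 3.52, 3.36 and 3.16 with TAS1440 and GSI. Its rise with TAS1440 of 0.63 (adjusted *P* = 0.0291) was lost without library 1, 2, 3 or 5 (0.44 to 0.67, adjusted *P* = 0.0657 to 0.0969), and that with TAS1440 and GSI of 1.07 (adjusted *P* = 0.0239) without library 1, 2, 3, 7 or 8 (0.98 to 1.11, adjusted *P* = 0.0895 to 0.115). Of the 6 members tested, 3 changed with TAS1440 against DMSO (36.7% of all 8260 genes), 2 against TAS1440 with GSI (32.0%) and 1 with TAS1440 and GSI against DMSO (1.97%). *Bcl2l1* was not called with TAS1440 (−0.14, −0.73 to 0.44), nor were *Bax* (0.12, −0.24 to 0.49) and *Bbc3* (−0.43, −0.84 to −0.03, adjusted *P* = 0.0889). *Bcl2* lay between 0.10 and 0.30 in all 9 libraries, and *Pmaip1* was 0.79, 2.51 and 0.55 with TAS1440, with 1 library far above the other 2. *Hes1* was 0.56 to 0.93 with DMSO, 4.64 to 5.42 with TAS1440 and 0.86 to 1.31 with GSI, and the summed neuroendocrine genes were 630 to 670, 6.07 to 79.0 and 519 to 656 RPKM. The 6 endothelial and fibroblast markers summed to 0.492 to 0.592 RPKM with DMSO and 14.5 to 17.5 with TAS1440, and the part of these shifts was not tested.

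The vector cells without doxycycline were compared with parental cells as a background. No member differed in H82 by limma (13.7% of all genes), with *BCL2L1* alone at an unadjusted *P* under 0.05 (0.93, 0.24 to 1.62, adjusted *P* = 0.0701). In H69 *BCL2L11* was lower by 0.41 (−0.41, −0.56 to −0.27, adjusted *P* = 0.00192, with 27.4% of all genes called), beside a rise of 0.28 on induction. H524 cells with the *N1ICD* vector differed in 2 of 8 members (26.6% of all genes). *MCL1* was lower by 0.57 (−0.57, −0.87 to −0.28, adjusted *P* = 0.00852, or 0.142 with only the compared groups) than the parental levels of 5.12, 4.80 and 5.06, so part of its rise with doxycycline in H524 is measured from a lower start. *PMAIP1* was lower by 0.82 (−0.82, adjusted *P* = 0.0383), lost without library 19, 21, 22 or 24 (−0.85 to −0.64, adjusted *P* = 0.0674 to 0.135), without a filter (adjusted *P* = 0.0522) and with only the compared groups (adjusted *P* = 0.188). Uninduced *REST* vector cells differed from parental H524 cells in no member (0.300% of all genes by limma), with *BAX* alone at an unadjusted *P* under 0.05 (−0.54, adjusted *P* = 0.413).

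Other genes of the pathway were taken from 3 lists. Among other BCL2 family genes, 3 of 10 rose and 2 fell with *N1ICD* in H82, 4 of 9 rose and 2 fell in H524, 3 of 10 rose and 6 fell in H69, 5 of 10 rose and none fell with TAS1440 in COR-L88, and 1 of 9 rose and 3 fell in KP1. *HRK*, a BH3-only gene of neurons, rose by 2.72 in H82, by 1.23 in H524 and by 1.77 in COR-L88 and fell by 2.91 in H69. *BMF*, another BH3-only gene, rose by 2.05 in H82, by 1.47 in H524 and by 1.32 in COR-L88, and *Bmf* fell by 1.36 in KP1. *BNIP3*, which takes part in mitophagy, fell by 3.83 in H82, by 1.71 in H524 and by 3.24 in H69, and *Bnip3* fell by 1.30 in KP1. In COR-L88, where none of the tested genes of this list fell, its value is not given.

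The inhibitor of apoptosis proteins had 3 of 6 up and 1 down in H82, 2 of 4 up in H524, 3 of 5 up in H69, 3 of 5 up and 1 down in COR-L88, and none of 3 up and 1 down in KP1. *BIRC2*, which encodes cIAP1, rose by 1.24, 1.42, 1.19 and 0.95 in H82, H524, H69 and COR-L88, and *Birc2* fell by 0.36 in KP1. Among p53 target genes, 3 of 10 rose and 2 fell in H82, 2 of 10 rose in H524, 5 of 10 rose and 3 fell in H69, 5 of 9 rose and 2 fell in COR-L88, and none of 6 rose and 1 fell in KP1. *FAS*, a death receptor, rose by 2.24, 2.09, 3.74 and 3.15 in H82, H524, H69 and COR-L88, while *CDKN1A*, a cell cycle inhibitor, rose by 3.35 in H82 and 3.25 in COR-L88 and fell by 2.09 in H69. Adjusted *P* was under 0.05 for each gene named in these lists (limma), and the shares of all genes that rose are those given beside *MCL1*. A line left out for a gene carries no statement about that gene there. The shares of all genes that fell were 24.9% in H82, 14.4% in H524, 38.3% in H69, 26.6% in COR-L88 and 18.5% in KP1.

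Genes whose pattern was most like that of a member were found over the 20 human group means after the mean of each line was subtracted. They are a description, since groups share lines and induced groups dominate. The closest to *BCL2* was *MOB2* (Pearson r = 0.918), to *BCL2L1* *SPINT2* (0.918), to *MCL1* *ARID5B* (0.964), to *PMAIP1* *CLSTN2* (0.913), to *BCL2L11* *HS3ST2* (0.895), to *BBC3* *HOTAIRM1* (0.806), to *BIK* *ELAC1* (0.856), to *BAX* *ARMC6* (0.915) and to *BAK1* *GM2A* (0.907).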

How the data were processed

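RNA-Seq data of 60 human and 9 KP1 libraries were analysed. Per the labels and the study's methods, the authors trimmed reads with cutadapt, aligned them with STAR to hg19 or mm10, quantified them with RSEM and scaled them with TMM factors in edgeR. The deposited values are log2 RPKM in 2 tables normalized separately, with 1 added to RPKM before the log, as the study's axes and the floor of 0 show. Tool versions, gene lengths and annotation are not given in the sources used here. Read counts were not used here, so the depth is unknown beyond relative library sizes, and no count model was fitted.

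limma 3.58.1 (R 4.3.3) compared group means in a fit of all groups of a line, with trended variances, over genes at 1 or more on the log2 scale in 3 or more libraries, with two-sided *P* and Benjamini-Hochberg adjustment over all genes tested. Differences between lines used a fit of the 60 human libraries. The steps were run on simulated independent normal values with the mean and spread of each gene. Such values check the code and cannot show whether the libraries of a group are independent. Summaries and figures used Python 3.11.15, numpy 2.4.6, pandas 2.3.3 and matplotlib 3.10.9. Positions are from annotations of GRCh37 and GRCm38.

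Members, lists and tests were chosen with earlier results of these data known. All members past the filter were tested in every comparison, but not every member is named in each. From the other lists, up to 4 genes with the largest change among those past the threshold could be named, and for each member the 2 genes with the most similar pattern, of which some are given. A further list of the pathway is not reported here. Alternatives were quantile normalization, no filter, median-centred libraries, a pseudocount of 0.1, variances with no trend, a fit of only the compared groups and the omission of each library.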

Additional observations from a re-analysis of the deposited data

Results flagged for a closer look

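Tests of the difference between 2 responses flagged the results below, all by limma at an adjusted *P* under 0.05. In H82 the response to doxycycline with *REST* KO minus that of intact cells was 1.70 for *BCL2*, 1.41 for *BCL2L11*, −1.47 for *PMAIP1* and −0.98 for *BIK*, the last not past the threshold with a pseudocount of 0.1 (adjusted *P* = 0.150). In H524 the response with the *N1ICD* vector minus that with the *REST* vector was 4.63 for *BCL2*, 1.07 for *MCL1* and −0.91 for *BCL2L1*, the last lost without any one of 8 libraries. In COR-L88 the response to TAS1440 with *STING1* KO minus that of intact cells was 1.68 for *BCL2*. In H82 *BCL2* and *BIK* passed the filter only through induced libraries.

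Between lines, the *N1ICD* response of H82 minus that of H524 was −1.08 for *BCL2*, 1.20 for *MCL1*, −1.44 for *BBC3*, 2.38 for *PMAIP1* and 1.30 for *BIK*. Of these, *BCL2* was lost without any one of 7 libraries and was 0.28 with a pseudocount of 0.1 (adjusted *P* = 0.729), and *BBC3* was lost without any one of 6 libraries. With only the compared groups in the fit, *BCL2* (adjusted *P* = 0.222) and *BBC3* (adjusted *P* = 0.207) were not past the threshold. *BIK* was under 1 in every H524 and H69 library. The response of H69 minus that of H82 was −5.28 for *BCL2*, −1.34 for *BCL2L1*, −1.48 for *MCL1*, 1.13 for *BAX*, 1.61 for *BAK1*, −4.78 for *PMAIP1* and −1.24 for *BIK*. The response of H69 minus that of H524 was −6.36 for *BCL2*, −1.46 for *BCL2L1*, 0.87 for *BAX*, 0.97 for *BAK1*, −2.50 for *BBC3* and −2.41 for *PMAIP1*, of which *BAK1* was lost without library 22 or 25 and with only the compared groups (adjusted *P* = 0.131).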

How the results depend on the processing

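No paired analysis was possible because the labels number the libraries in a single run, so that compared groups share no replicate number. Of 316 fold changes of members, 2 changed sign after being called. *BAX* in H69 with *N1ICD* was −0.020 with quantile normalization, and the difference of the *BCL2* response between H82 and H524 was 0.28 with a pseudocount of 0.1. The cause was not tested.

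Counts of members called moved by over 1.5 times as follows. Without the filter they were 0 for *STING1* KO in H82 without doxycycline, 1 for uninduced *N1ICD* cells of H524 and 2 for those of H69. With quantile normalization they were 0 for *REST* KO in H82 without doxycycline, 1 for the *REST* vector in H524 and 4 for *STING1* KO in COR-L88 with TAS1440. With median-centred libraries the count was 0 for *STING1* KO in H82 without doxycycline. With only the compared groups, which leaves fewer samples for the variance, they were 2 and 0 for *STING1* KO in H82 with and without doxycycline, 2 for *N1ICD* in H524, 0 for its uninduced cells, 2 for TAS1440 with GSI against DMSO in COR-L88, 3 for TAS1440 with *STING1* KO, 1 for *STING1* KO with TAS1440 and 3 for the responses of H82 and H524.

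Leaving out each library in turn gave 0 to 2 members for uninduced H82 cells, 0 for *REST* KO in H82 without doxycycline, 0 to 1 for *STING1* KO there, 0 to 2 for its interaction and 2 to 4 with doxycycline. It gave 1 to 4 for uninduced *N1ICD* cells of H524, 2 to 4 for *N1ICD* in H524, 2 to 3 for *N1ICD* against *REST*, 1 to 2 for uninduced H69 cells, 1 to 2 for TAS1440 with GSI against DMSO, 1 to 2 for the interaction in COR-L88, 1 to 3 for *STING1* KO with TAS1440 and 3 to 5 for TAS1440 with *STING1* KO. It gave 0 to 1 for TAS1440 with GSI in KP1, 3 to 5 for the responses of H82 and H524 and 3 to 5 for untreated H524 against H69. Median-centring shifted the median of all genes by at most 0.137, for TAS1440 against DMSO in COR-L88. *BCL2A1* in every human line, *BIK* in H524 and H69, and *Bcl2*, *Pmaip1* and *Bik* in KP1 were too low for the filter, and whether depth or expression sets this was not tested.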
